A study of Mus musculus with 6 samples.

Results

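The 33 genes described here encode glucose transporters, the enzymes that turn glucose into lactate, their regulators, and the hypoxia-inducible factor (HIF) with a set of its known targets. They were chosen by gene symbol from the deposited raw count table, where all 33 were found among 24091 symbols, and 32 of them were among the 12469 genes abundant enough to be tested. The members fall into 19 genes of glycolysis and lactate handling and 14 genes of the HIF response. The study sequenced polyadenylated RNA from group 1 innate lymphoid cells (ILC1), tissue-resident lymphocytes, of mouse liver, to look for pathways that regulate these cells in acute myeloid leukaemia (AML).

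The AML group comprised 3 libraries from C57BL/6 mice that had been injected into a vein with 1000000 C1498 cells, a transplantable myeloid leukaemia line of the same strain, and the healthy group comprised 3 libraries from C57BL/6 mice without that injection. Cells of both groups were taken from the liver at day 14. The labels give no genetic modification, no sex and no gate for the ILC1, and they do not say whether a library came from a single mouse or from several. The libraries are called AML 1 to 3 and healthy 1 to 3 after the numbers in their titles. No label says that they came from separate animals, so a p-value here reflects how much these 6 libraries vary, and part of that variation may be technical.

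Glycolysis takes up glucose through transporters of the SLC2A family, phosphorylates it with a hexokinase, commits it at phosphofructokinase and ends with pyruvate, which lactate dehydrogenase can turn into lactate. When oxygen is present, prolyl hydroxylases of the EGLN family mark the HIF alpha subunit for destruction, and when oxygen is scarce the subunit persists and, paired with ARNT, activates genes that hold its short binding motif, among them most glycolytic genes. In lymphocytes glycolytic and HIF target genes are also known to rise with activation and proliferation, so their messages are often read as a measure of metabolic state.

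Total counts ran from 45135093 to 51284691 per library, a range in which 3 counts, taken as the limit that a count of 0 allows in a library, equal 0.0574 to 0.0642 CPM, counts scaled to the size of the library; this limit covers counting error only. The summed level of 11 ILC1 markers was 11674 to 12548 CPM in AML libraries and 12287 to 12650 CPM in healthy libraries, and all 11 were detected in every library. Markers of other cells were also present. The summed monocyte markers were 648, 739.95 and 561 CPM in AML 1 to 3, against 587, 68.0 and 79.8 CPM in healthy 1 to 3. The summed markers of Kupffer cells and macrophages were 159, 119 and 190.2 CPM in AML 1 to 3, against 84.3, 28.7 and 24.4 CPM in healthy 1 to 3. The summed neutrophil markers were 133, 2.41 and 7.17 CPM in AML 1 to 3, against 6.40, 0.563 and 5.30 CPM in healthy 1 to 3, with 5 of 8 markers at 0 in at least 1 library and the defining marker Ly6g at 0 in all of them. The summed markers of cycling cells were 529.8, 259.6 and 250.4 CPM in AML 1 to 3, against 234, 344 and 215 CPM in healthy 1 to 3. The summed T cell markers were 1099 to 1383 CPM in AML libraries and 1439 to 1745 CPM in healthy libraries. Most of that sum was Cd3g, at 951, 1293 and 1176 CPM in AML 1 to 3, against 1646, 1459 and 1317 CPM in healthy 1 to 3. Cd28 measured 120, 32.3 and 30.4 CPM in AML 1 to 3, against 52.5, 66.0 and 67.2 CPM in healthy 1 to 3. Of the 8 T cell markers, 5 had log2 fold changes below 0 and 3 above 0. Cd3e and Cd8a, among those above 0, had 0.38 ± 0.58 and 0.47 ± 0.61. The summed dendritic cell markers were 824 to 855 CPM in AML libraries and 750.1 to 809.8 CPM in healthy libraries, mostly Itgax. Among them Siglech measured 3.25, 0.804 and 2.61 CPM in AML 1 to 3 and was at 0 in the healthy libraries, and H2-Ab1 measured 94.98, 66.3 and 124 CPM in AML 1 to 3, against 37.1, 16.5 and 22.6 CPM in healthy 1 to 3. The summed hepatocyte markers were 187 to 206 CPM in AML libraries and 230.2 to 276 CPM in healthy libraries, nearly all from Trf, while the defining marker Alb was at 0.0841 to 0.727 CPM in AML libraries and 0.507 to 3.14 CPM in healthy libraries. Whether these differences in marker levels reflect cell content, and what part they play in the values below, was not tested.

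The first sequences shown are coding stretches of Gapdh, Pgam1 and Eno1, enzymes of the lower part of the pathway whose counts were low. Each stretch has 51 bases, the read length of the study, and is also found letter for letter in other annotated mouse genes. For each gene it is the coding stretch of this length found in the most other genes, so its gene count is the highest, not typical. The stretches are given 5′ to 3′ from the GENCODE vM21 transcripts, in lower case throughout since the whole run is shared. The Gapdh stretch begins at base 415 of the coding sequence and occurs in 83 other genes, that of Pgam1 begins at base 451 and occurs in 3, and that of Eno1 begins at base 445 and occurs in 5.
Gapdh: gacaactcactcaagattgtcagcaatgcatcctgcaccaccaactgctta
Pgam1: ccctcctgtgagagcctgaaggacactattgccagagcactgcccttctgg
Eno1: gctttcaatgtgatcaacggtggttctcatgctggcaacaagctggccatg

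The other sequences are the promoters, from 250 bases before to 50 bases after the transcription start, of 4 members to which the comparison returns: Slc2a1 and Vegfa, which passed the test once the libraries numbered 1 were left out, P4ha1, whose values were highest in AML 1 and AML 2, and Ldha, the classical HIF target of the set. They are given 5′ to 3′ on the strand of the gene, from RefSeq on GRCm38.p6, the assembly also called mm10. Capitals mark each ACGTG or GCGTG, the core letters of the HIF binding motif, on either strand, where they read CACGT or CACGC; a palindromic CACGTG holds 2 overlapping matches and is also the E-box read by other factors. The positions are chr4:119108495-119108794 on the plus strand for Slc2a1, chr7:46845554-46845853 on the plus strand for Ldha, chr17:46032328-46032627 on the minus strand for Vegfa and chr10:59323046-59323345 on the plus strand for P4ha1.
Slc2a1: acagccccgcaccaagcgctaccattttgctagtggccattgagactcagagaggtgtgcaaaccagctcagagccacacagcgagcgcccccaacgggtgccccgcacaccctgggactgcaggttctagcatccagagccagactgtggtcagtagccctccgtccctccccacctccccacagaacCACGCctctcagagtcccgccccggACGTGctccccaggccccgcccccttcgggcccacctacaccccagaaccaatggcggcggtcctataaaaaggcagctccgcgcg
Ldha: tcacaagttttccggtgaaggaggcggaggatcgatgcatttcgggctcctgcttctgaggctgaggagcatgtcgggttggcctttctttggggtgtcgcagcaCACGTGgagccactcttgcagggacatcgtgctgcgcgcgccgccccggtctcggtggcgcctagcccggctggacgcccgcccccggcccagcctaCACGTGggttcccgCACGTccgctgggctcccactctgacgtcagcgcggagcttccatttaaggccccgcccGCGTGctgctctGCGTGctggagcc
Vegfa: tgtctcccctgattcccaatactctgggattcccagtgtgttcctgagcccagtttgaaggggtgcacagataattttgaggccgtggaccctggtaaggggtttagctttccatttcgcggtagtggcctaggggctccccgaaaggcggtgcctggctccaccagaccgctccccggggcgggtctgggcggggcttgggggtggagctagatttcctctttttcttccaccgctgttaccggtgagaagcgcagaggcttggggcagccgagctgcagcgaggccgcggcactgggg
P4ha1: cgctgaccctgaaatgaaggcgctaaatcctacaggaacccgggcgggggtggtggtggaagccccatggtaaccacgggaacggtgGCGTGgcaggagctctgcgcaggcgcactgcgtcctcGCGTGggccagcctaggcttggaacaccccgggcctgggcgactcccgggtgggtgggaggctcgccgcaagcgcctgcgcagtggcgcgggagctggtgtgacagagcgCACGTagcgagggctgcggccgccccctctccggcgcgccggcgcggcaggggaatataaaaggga
The Ldha promoter held 7 matches, that of P4ha1 held 3, that of Slc2a1 held 2 and that of Vegfa held 0. Of the 30 members with a promoter in the RefSeq table, 24 (80%) held at least 1 match, with a median of 2, against 43.8% of all 32851 promoters of the same length, with a median of 0. Members were listed as genes of a pathway that HIF is known to control, so this share is a description of the list. Base composition was not matched, nor was the number of promoters per gene. Each member entered with 1 promoter, the nearest to its deposited start, while the 32851 hold several promoters of some genes. A match is not a bound site, and its absence in Vegfa says only that these letters are not in this window.

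Among the 32 tested members, no difference between AML and healthy ILC1 passed after adjustment when all 6 libraries were used. The highest members per unit length, as counted, were Aldoa, Ldha and Pkm, which encode the enzymes of the aldolase, lactate and pyruvate steps. For each of them the AML and healthy libraries overlapped. This order is uncertain, since the counted levels of 9 members, among them Pkm, Gapdh, Pgk1, Pgam1 and Eno1, are uncertain for lack of unique sequence, as given below. No member passed an adjusted p of 0.05 in edgeR's quasi-likelihood test, in which 0 of 12469 genes (0%) passed and the smallest adjusted p of any gene was 0.0764; the smallest among members was 0.565. DESeq2, edgeR's likelihood ratio test and limma-voom also called 0 members, where they called 1.15%, 0.802% and 0% of all genes. At an unadjusted p below 0.05, the quasi-likelihood test found 0 of 32 members, against 8.84% of all genes tested, and this count depended on the fit. DESeq2 found 5 members (P4ha1, Pfkfb3, Pfkfb4, Pfkl and Slc2a3), against 10% of all genes. Limma-voom found 3 (Pfkfb4, Pfkl and Slc2a1), against 10.8%, and the likelihood ratio test found 2 (P4ha1 and Slc2a1), against 8.59%. The quasi-likelihood test without a filter on low counts found 2 (P4ha1 and Pfkl), against 7.91% of 16614 genes. Without AML 1 it found 8 members, against 15%, and without the libraries numbered 1 of both groups 6, against 15.9%.

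**Figure D1:**
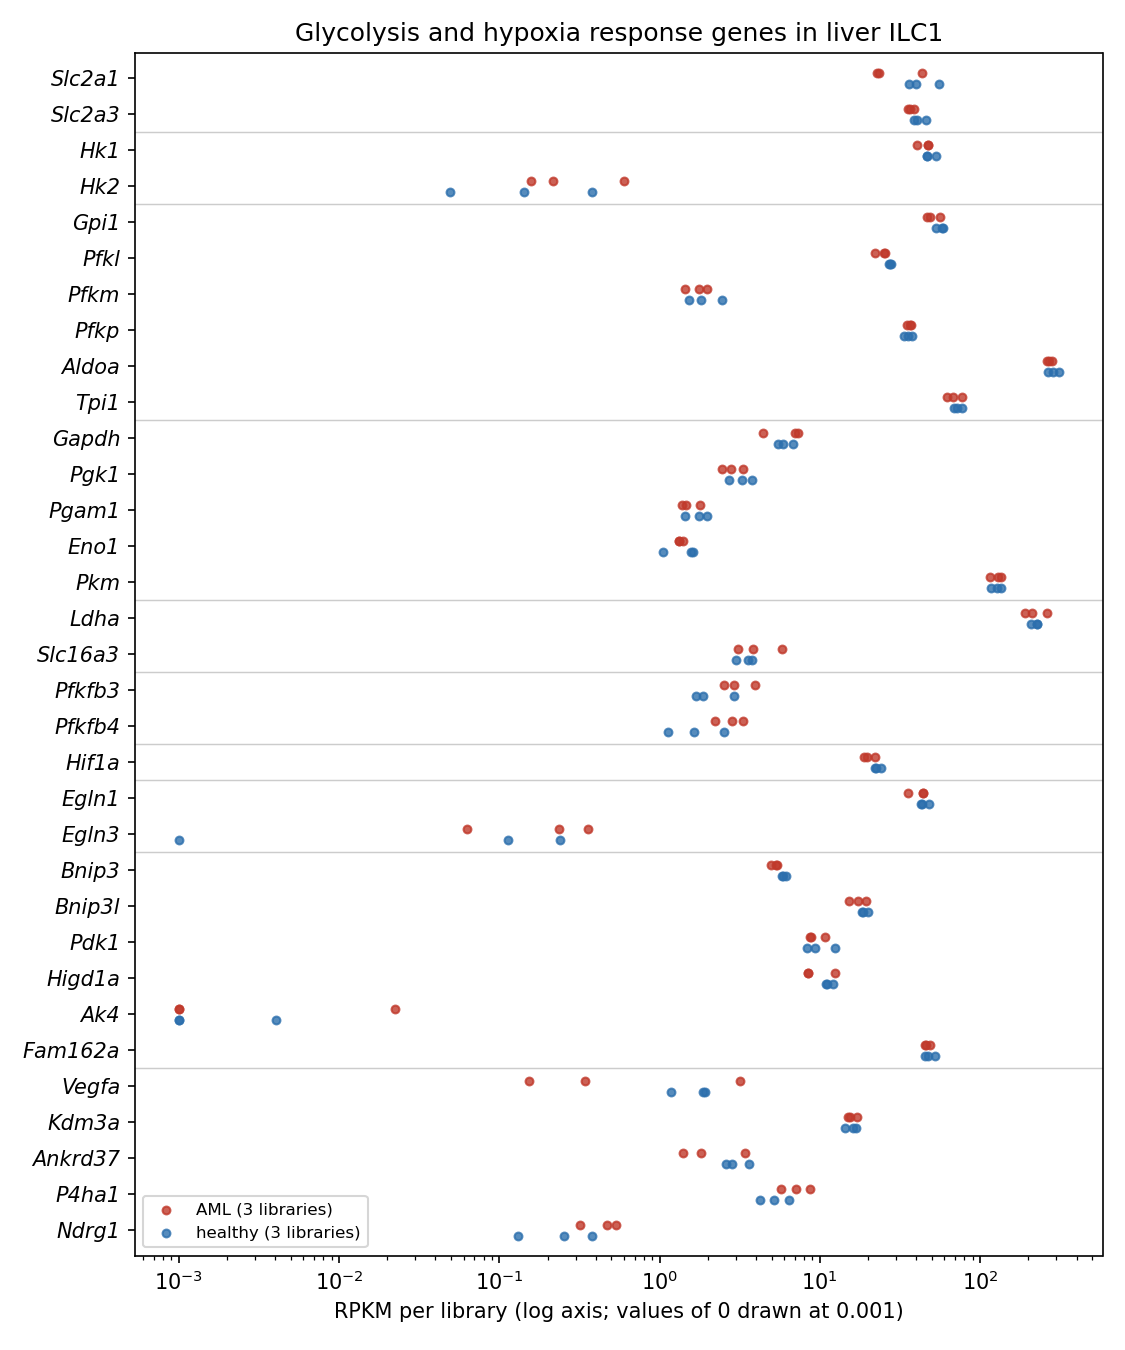
Level of each of the 33 members as reads scaled to library size and gene length (RPKM, log axis, values of 0 drawn at 0.001) in the 3 AML and 3 healthy libraries, each point a library. As counted, Aldoa and Ldha lie highest at means of 278 and 221 RPKM over the 6 libraries, and Ak4 lies at the bottom. Levels of members with little unique sequence, such as Gapdh and Eno1, are uncertain.

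The members' log2 fold changes, AML minus healthy, were below 0 for 21 and above 0 for 11 of the 32, with a median of -0.09, where 48% of all genes tested were below 0 and the median over all genes was 0.01. By pathway, the median was -0.08 over the 19 glycolysis members and -0.11 over the 13 tested HIF response members. The AML and healthy libraries did not overlap for 3 of 32 members, Slc2a3, Pfkl and Bnip3, all of them lower in AML, against 15.5% of all genes tested, made up of 7.34% lower and 8.2% higher in AML. The summed level of all 33 members was 3456, 3206 and 2969 CPM in AML 1 to 3, against 3514, 3413 and 3259 CPM in healthy 1 to 3, so the groups overlapped. The 95% interval of the log2 fold change lay within a 1.5-fold difference in either direction for 17 of 32 members and within a 2-fold difference for 24. These intervals rest on the spread of the libraries, which may not be separate animals, so they do not bound a difference between mice. In bulk libraries like these, fewer cells that express a gene and less RNA per cell cannot be told apart.

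**Figure D2:**
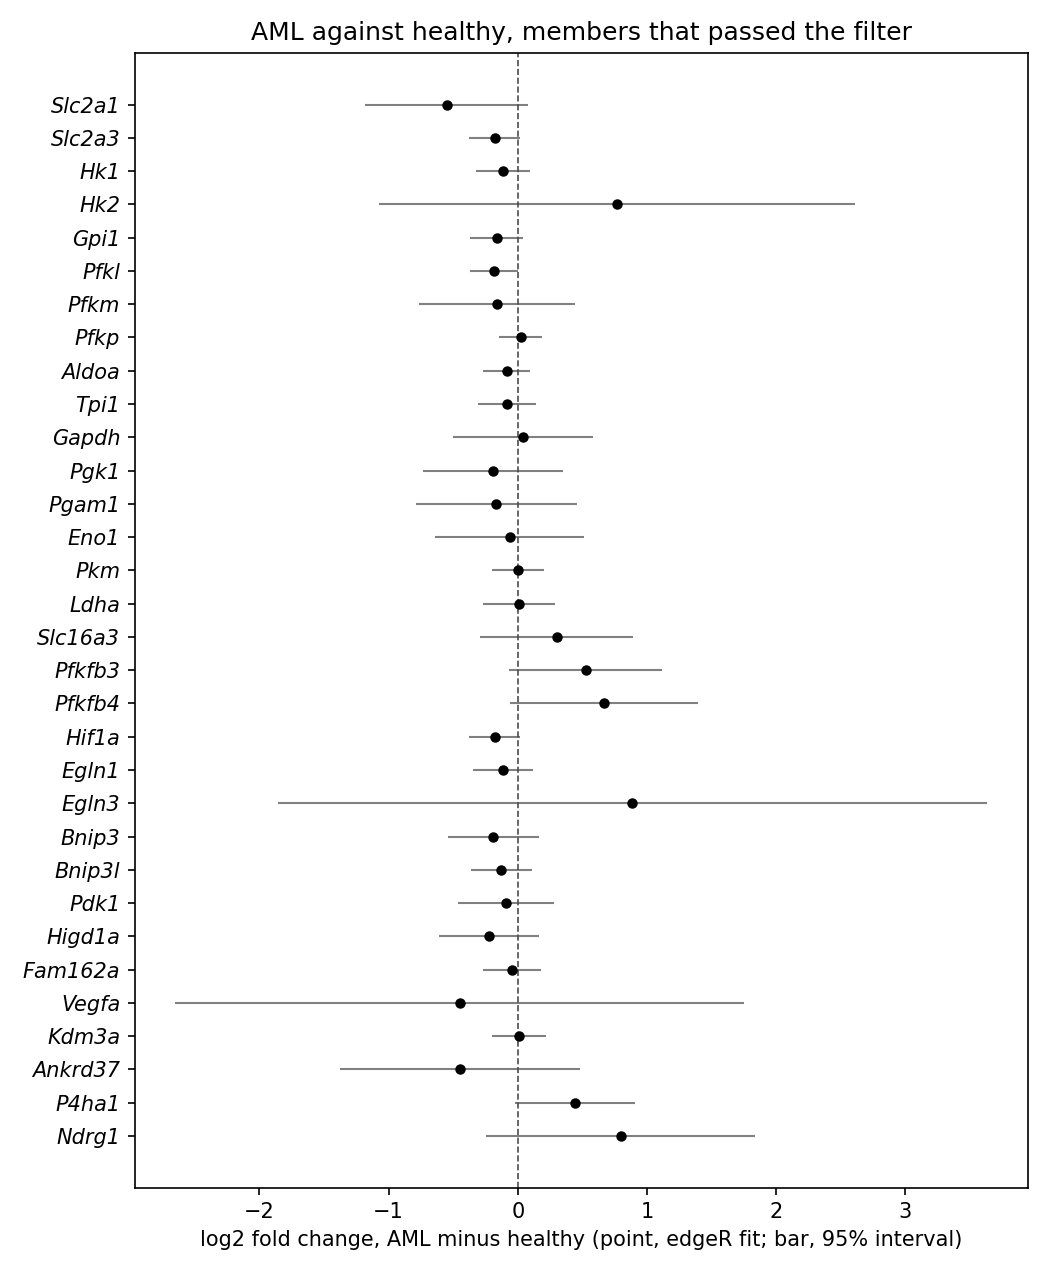
Log2 fold change, AML minus healthy, of the 32 tested members, with points for the edgeR estimate and bars for its 95% interval; the dashed line marks no difference. The intervals of the abundant enzymes are narrow and span 0, while those of Egln3, Vegfa and Hk2 are wide.

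Glucose enters through transporters, of which Slc2a1 (GLUT1) and Slc2a3 (GLUT3) are members. Slc2a1 (chr4:119108745-119137329, mm10 as for all positions) measured 112, 60.4 and 58.1 CPM in AML 1 to 3, against 142, 103 and 91.9 CPM in healthy 1 to 3. The group means were 76.7 ± 30.2 CPM in AML and 112 ± 26.3 CPM in healthy libraries (SD, n = 3 each), and AML 1 lay among the healthy libraries while AML 2 and AML 3 lay below all of them. The log2 fold change was -0.55 ± 0.27 (SE, as for all log2 fold changes here), with a 95% interval of -1.18 to 0.08 (edgeR, adjusted p = 0.586). Slc2a3 (chr6:122727809-122742745), the transporter with the higher affinity for glucose, measured 236, 249.9 and 229 CPM in AML libraries, against 261, 251 and 297 CPM in healthy libraries. Every AML library was below every healthy library, though AML 2 and healthy 2 were nearly equal, and the log2 fold change was -0.18 ± 0.09 (edgeR, adjusted p = 0.569). Per unit length both transporters stood at like levels, with 36.9 and 39.2 RPKM over the 6 libraries.

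Hexokinase traps glucose in the cell, and the isoform counted was almost entirely Hk1, the broadly expressed form. Hk1 (chr10:62268855-62379908) measured 355, 358 and 306 CPM in AML libraries, against 353, 398 and 352 CPM in healthy libraries, and the groups overlapped, with a log2 fold change of -0.11 ± 0.09 (edgeR, adjusted p = 0.698). Part of its reads cannot be assigned with certainty, since the antisense gene Hk1os overlaps it and the libraries carry no strand information. Hk2 (chr6:82725027-82774454), the inducible isoform and a known HIF target, measured 3.31, 1.19 and 0.862 CPM in AML libraries, against 2.09, 0.784 and 0.270 CPM in healthy libraries. Library 1 was the highest within each group, the values ranged 3.84-fold within AML and 7.73-fold within healthy libraries, and the log2 fold change of 0.77 ± 0.79 had an interval of -1.07 to 2.61 (edgeR, adjusted p = 0.767).

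Among the steps that follow, Pfkl, the liver-type phosphofructokinase, gave the smallest p of any member in the quasi-likelihood test of all 6 libraries. Pfkl (chr10:77986949-78009796) measured 92.9, 81.5 and 93.7 CPM in AML libraries, against 103, 100.3 and 101 CPM in healthy libraries. All AML libraries were below all healthy ones, which differed by only 1.03-fold among themselves. The means were 89.4 ± 6.81 CPM in AML and 101 ± 1.54 CPM in healthy libraries (SD, n = 3 each), and the log2 fold change was -0.18 ± 0.08 (SE) by edgeR's quasi-likelihood test (unadjusted p = 0.0507, adjusted p = 0.565). Pfkp, the platelet-type isoform and the most abundant of the step per unit length, whose end overlaps Pitrm1, had a log2 fold change of 0.02 ± 0.07 with an interval of -0.15 to 0.19, and Pfkm, the muscle-type isoform, had -0.16 ± 0.26 at a low mean level of 1.83 RPKM. Gpi1, the glucose phosphate isomerase, and Tpi1, the triose phosphate isomerase, had log2 fold changes of -0.16 ± 0.09 and -0.08 ± 0.10.

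Aldoa (chr7:126795234-126800447), the aldolase that splits the sugar into triose phosphates, was the most abundant member per unit length as counted, above 98.5% of the genes tested by mean RPKM. It measured 486, 508 and 472 CPM in AML libraries, against 559.9, 517 and 480.4 CPM in healthy libraries. The groups overlapped, and the log2 fold change was -0.09 ± 0.08 with an interval of -0.27 to 0.10 (edgeR, adjusted p = 0.736).

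Pkm (chr9:59656368-59679375), the pyruvate kinase that yields pyruvate and ATP, was close to equal in the groups. It measured 467, 453 and 402 CPM in AML libraries, against 469, 445 and 409 CPM in healthy libraries, and the means were 441 ± 34.1 CPM in AML and 441 ± 30.4 CPM in healthy libraries (SD, n = 3 each). The interval of its log2 fold change was -0.20 to 0.20. Ldha (chr7:46845804-46855627), which reduces pyruvate to lactate, measured 506, 404 and 368 CPM in AML libraries, against 434, 433 and 401 CPM in healthy libraries. AML 1 was the highest of all libraries and AML 3 the lowest, so the AML libraries spread on both sides of the healthy ones, and the log2 fold change was 0.01 ± 0.12 with an interval of -0.27 to 0.29 (edgeR, adjusted p = 0.981). Slc16a3 (chr11:120948484-120959000), the transporter MCT4 that exports lactate, measured 14.9, 9.90 and 7.93 CPM in AML libraries, against 9.75, 7.72 and 9.14 CPM in healthy libraries, and the groups overlapped, with a log2 fold change of 0.30 ± 0.26 (edgeR, adjusted p = 0.715).

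The other enzymes of the lower part, Gapdh, Pgk1, Pgam1 and Eno1, were counted at levels far below their neighbours in the pathway. Gapdh, the glyceraldehyde phosphate dehydrogenase, averaged 6.16 RPKM, Pgk1, the phosphoglycerate kinase, 3.06, Pgam1, the phosphoglycerate mutase, 1.64 and Eno1, the enolase, 1.38 RPKM over the 6 libraries, where Tpi1 just before them averaged 70.9 and Pkm just after them 127 RPKM. Their messages are not distinctive in sequence: of all 51-base windows in the coding sequence, 0% were found in no other gene for Gapdh, Pgk1 and Pgam1, and 17% for Eno1. Over the whole transcript the share was 17.6% for Gapdh, 32.1% for Pgk1, 58.6% for Pgam1 and 28.1% for Eno1. The gene sharing the most windows with Eno1 was Eno1b, whose deposited position, chr4:48045335-150248873, spans Eno1 and has the same end. Gapdh shared windows with 220 other genes, of which 211 are annotated as pseudogenes, as the stretch printed above illustrates. For comparison, every coding window was unique in 16 of the 33 members, and the share was 83.9% for Aldoa, 72.9% for Ldha, 86.9% for Tpi1 and 48.2% for Pkm. How reads that match several genes were treated is not given in the sources used here, and whether that treatment set these low levels was not tested. In all, 9 members had under 50% of coding windows unique, and their levels are therefore uncertain. Beside these 4 and Pkm they were Ak4 with 22.3%, Bnip3 with 24.3%, Bnip3l with 29.9% and Higd1a with 32.8%.

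**Figure D3:**
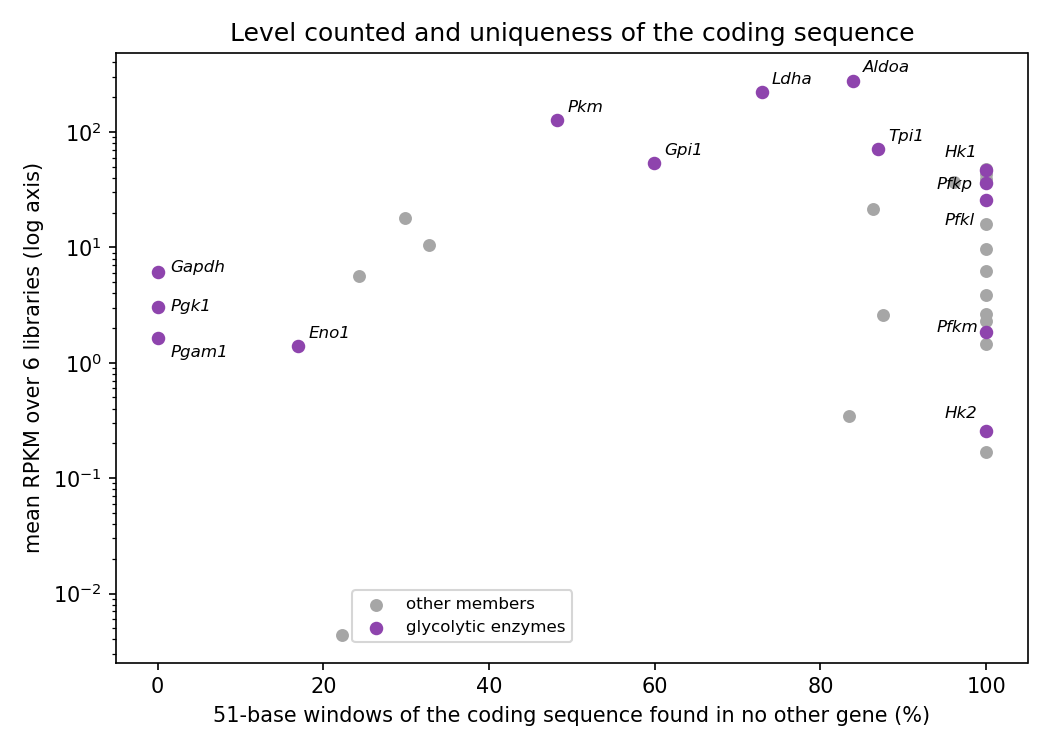
Mean RPKM over 6 libraries (log axis) of each member against the share of 51-base windows of its coding sequence that occur in no other annotated gene (percent), with glycolytic enzymes in purple and other members in grey. Gapdh, Pgk1 and Pgam1 lie at 0% and Eno1 at 17%, with mean levels of 6.16, 3.06, 1.64 and 1.38 RPKM.

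The comparison of groups could still be read for the share of reads that was counted, and none of the 4 passed. Gapdh (chr6:125161852-125166467), named after its values were seen because it often serves as a reference gene, measured 6.61, 10.9 and 10.4 CPM in AML libraries, against 8.73, 8.18 and 10.2 CPM in healthy libraries. Its lowest and highest values were both in AML libraries, and the log2 fold change was 0.04 ± 0.23 (edgeR, adjusted p = 0.967). Pgk1 (chrX:106187100-106203699) measured 6.01, 5.05 and 4.46 CPM in AML libraries, against 6.89, 5.93 and 4.94 CPM in healthy libraries, with overlapping groups and a log2 fold change of -0.19 ± 0.23 (edgeR, adjusted p = 0.793). Pgam1 and Eno1 had log2 fold changes of -0.17 ± 0.27 and -0.06 ± 0.25.

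The bifunctional enzymes Pfkfb3 and Pfkfb4 set the level of a sugar bisphosphate that activates phosphofructokinase, and both are known HIF targets. They had the largest positive estimates among the glycolytic genes beside Hk2, without passing the test. Pfkfb3 (chr2:11471431-11553929) measured 14.1, 16.3 and 22.0 CPM in AML libraries, against 9.52, 16.4 and 10.4 CPM in healthy libraries. Healthy 2 lay above AML 1 and AML 2, and the log2 fold change was 0.53 ± 0.25 with an interval of -0.06 to 1.12 (edgeR, unadjusted p = 0.0744, adjusted p = 0.576). Pfkfb4 (chr9:108991902-109032225) measured 12.1, 8.10 and 10.3 CPM in AML libraries, against 9.16, 5.95 and 4.09 CPM in healthy libraries. Healthy 1 lay above AML 2, and the log2 fold change was 0.67 ± 0.31 with an interval of -0.06 to 1.40 (edgeR, unadjusted p = 0.0690, adjusted p = 0.569).

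The HIF machinery itself is represented by Hif1a, the oxygen-regulated subunit, and by the prolyl hydroxylases Egln1 and Egln3. HIF is controlled mainly through the stability of its protein, which messenger RNA does not report. Hif1a (chr12:73901324-73947554) measured 122, 109.5 and 104 CPM in AML libraries, against 124, 134 and 122 CPM in healthy libraries. AML 1 lay between healthy 3 and healthy 1, while AML 2 and AML 3 lay below all of them, and the log2 fold change was -0.18 ± 0.08 (edgeR, unadjusted p = 0.0706, adjusted p = 0.569). Egln1 (chr8:124908587-124949254), the main oxygen sensor, measured 154, 155 and 126 CPM in AML libraries, against 168, 152 and 149.9 CPM in healthy libraries, with overlapping groups and a log2 fold change of -0.11 ± 0.10 (edgeR, adjusted p = 0.724). Egln3 (chr12:54178981-54203874), a hydroxylase whose gene HIF itself induces, measured 0.962, 0.632 and 0.168 CPM in AML libraries, against 0.304, 0.643 and 0 CPM in healthy libraries. Healthy 3 had no counts, the groups overlapped, and at a mean of only 0.169 RPKM its log2 fold change of 0.89 ± 1.18 had an interval of -1.86 to 3.63 (edgeR, adjusted p = 0.814).

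Targets that act at the mitochondrion were lower in AML by estimate in 5 of 5 tested members, where 48% of all genes tested were. None of the 5 passed, and the counts of Bnip3, Bnip3l and Higd1a are uncertain for lack of unique sequence. Bnip3 (chr7:138890836-138909506), a receptor for the removal of mitochondria, measured 9.30, 8.71 and 9.48 CPM in AML libraries, against 10.2, 10.8 and 10.4 CPM in healthy libraries. Every AML library was below every healthy one, with a log2 fold change of -0.19 ± 0.15 (edgeR, adjusted p = 0.700), and the limit on its unique sequence given above applies. Higd1a (chr9:121848560-121858000), a respiratory chain factor with 32.8% of coding windows unique, measured 29.5, 19.9 and 20.0 CPM in AML libraries, against 28.5, 26.4 and 26.0 CPM in healthy libraries. AML 1 lay above all healthy libraries and AML 2 and AML 3 below all of them, with a log2 fold change of -0.22 ± 0.17 (edgeR, adjusted p = 0.688). Fam162a (chr16:36043844-36071515), a HIF-responsive mitochondrial protein whose end overlaps Wdr5b, was the most abundant of the group per unit length at 47.4 RPKM. It measured 28.5, 30.7 and 28.8 CPM in AML libraries, against 32.8, 29.7 and 28.5 CPM in healthy libraries, with a log2 fold change of -0.05 ± 0.10 (edgeR, adjusted p = 0.886). Bnip3l, a relative of Bnip3, and Pdk1, the kinase that shuts pyruvate dehydrogenase, had log2 fold changes of -0.13 ± 0.10 and -0.09 ± 0.16. Ak4, a mitochondrial adenylate kinase, had 0, 6 and 0 counts in AML 1 to 3 and 0, 0 and 1 counts in healthy 1 to 3 and was not tested, with the same limit on its unique sequence.

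Among the remaining targets, P4ha1 had the smallest p and Vegfa the widest spread; both were named after their values were seen. P4ha1 (chr10:59323296-59373304), a prolyl hydroxylase of collagen, measured 35.7, 29.1 and 23.5 CPM in AML libraries, against 17.3, 21.2 and 26.6 CPM in healthy libraries. AML 1 and AML 2 lay above all healthy libraries, while AML 3 lay below healthy 3, and the log2 fold change was 0.44 ± 0.20 with an interval of -0.02 to 0.90 (edgeR, unadjusted p = 0.0598, adjusted p = 0.569). Ndrg1 (chr15:66929318-66969641), a stress-responsive gene, measured 3.16, 2.76 and 1.87 CPM in AML libraries, against 2.23, 0.764 and 1.50 CPM in healthy libraries, with overlapping groups and a log2 fold change of 0.79 ± 0.45 (edgeR, adjusted p = 0.621). Kdm3a (chr6:71588970-71632917), a histone demethylase, measured 115, 100.4 and 103 CPM in AML libraries, against 96.5, 108 and 112 CPM in healthy libraries, and its log2 fold change of 0.01 ± 0.09 had an interval of -0.20 to 0.22. Ankrd37, an ankyrin repeat protein that overlaps Lrp2bp, had a log2 fold change of -0.45 ± 0.40 at 2.61 RPKM.

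Vegfa (chr17:46016993-46032377), the vascular growth factor, measured 13.8, 1.49 and 0.673 CPM in AML libraries, against 8.19, 8.40 and 5.17 CPM in healthy libraries. AML 1 was the highest of the 6 libraries, and AML 2 and AML 3 were the lowest, a 20.5-fold range within a single group. With all libraries the log2 fold change was -0.45 ± 0.95, with an interval of -2.65 to 1.75 (edgeR, adjusted p = 0.888). Without AML 1 it was -2.74, with an adjusted p of 0.0410 in edgeR's quasi-likelihood test, in which 1.15% of 12764 genes were called; Vegfa was the only member among them. Without the libraries numbered 1 of both groups, 2 members were called, Vegfa at -2.64 (edgeR, adjusted p = 0.0207) and Slc2a1 at -0.72 (edgeR, adjusted p = 0.00676), where 3.54% of 12555 genes were called. Without AML 1 alone Slc2a1 stood at -0.92 (edgeR, adjusted p = 0.0630), and without AML 3 the log2 fold change of Vegfa was 0.07.

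AML 1 was also the library with the most neutrophil and cycling cell marker counts, given above. Among the AML libraries it was the highest for 20 of 32 members, against 38.6% of all genes tested. Healthy 1, with the most monocyte marker counts of its group, was the highest healthy library for 18 of 32 members, against 35.2% of all genes tested. Their part in the values of Vegfa, Slc2a1 and the other members was not tested.

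**Figure D4:**
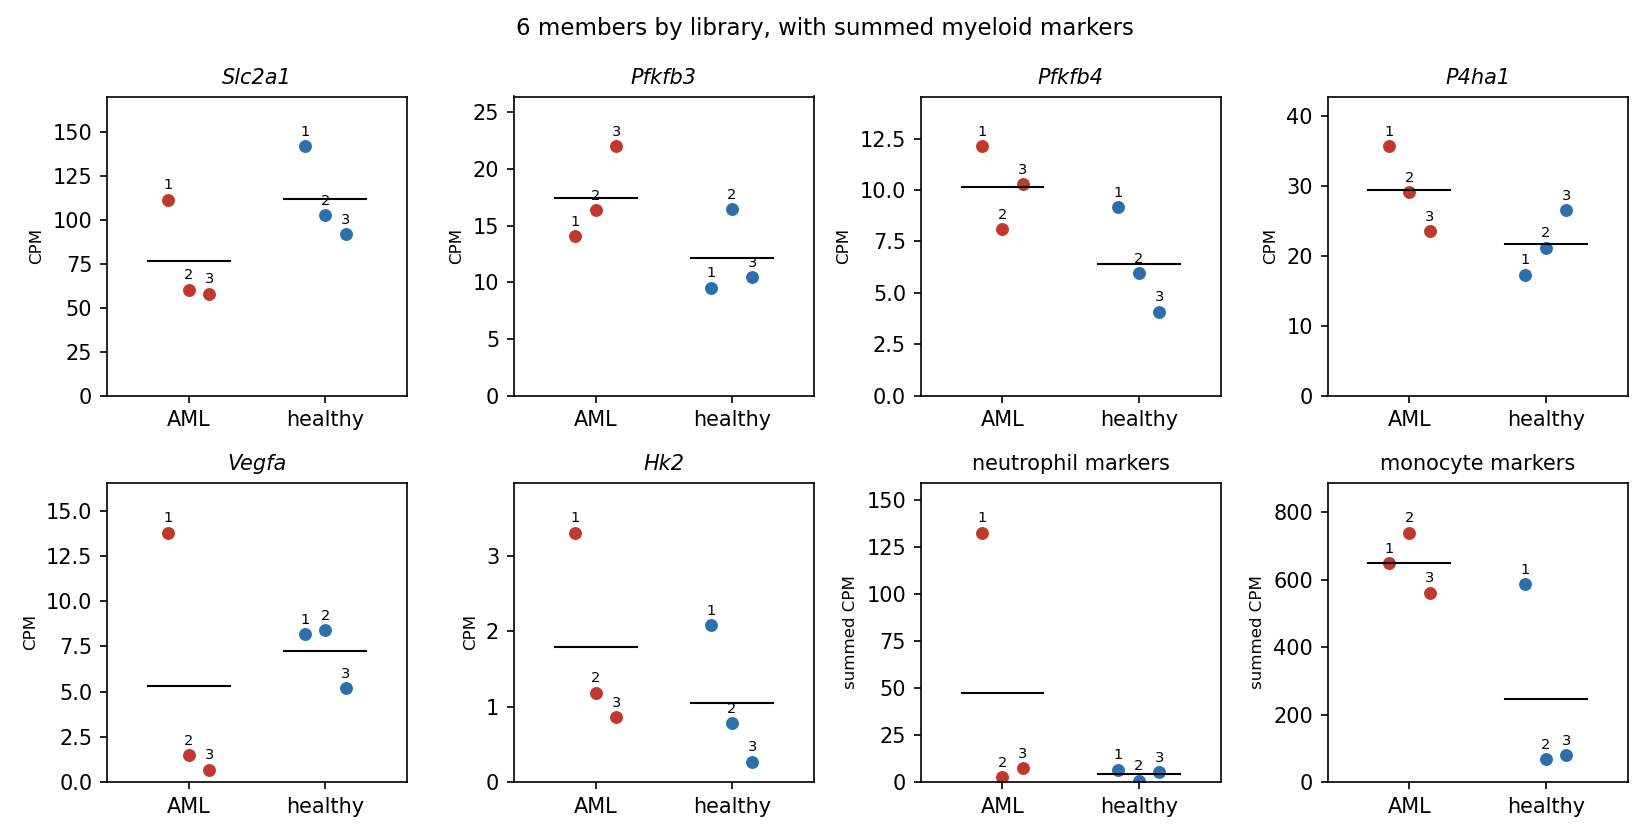
Level in each library, numbered 1 to 3, of Slc2a1, Pfkfb3, Pfkfb4, P4ha1, Vegfa and Hk2 (CPM, linear axes from 0) and the summed neutrophil and monocyte markers (summed CPM), with AML left of healthy and black lines for means. Vegfa stands at 13.8 CPM in AML 1 and at only 1.49 CPM in AML 2 and 0.673 CPM in AML 3, and the neutrophil markers reach 133 CPM in AML 1 and lie between 0.563 and 7.17 CPM in the other libraries.

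Isoform shares within a step do not depend on library size, so they were compared as a second reading of the same counts per kilobase. Hk1 held 92.6% ± 2.6 of the RPKM of the 4 hexokinase genes in AML libraries and 95.5% ± 1.22 in healthy libraries (SD, n = 3 each). The remainder was mainly Hk3, a hexokinase of myeloid cells, at 15.4, 7.45 and 9.11 CPM in AML libraries, against 4.28, 6.92 and 9.26 CPM in healthy libraries, and Hk2 held 0.646% ± 0.437 in AML and 0.379% ± 0.356 in healthy libraries. Among the phosphofructokinases, Pfkp held 58.3% ± 2.09 in AML and 54.8% ± 1.93 in healthy libraries, and Pfkl held 38.9% ± 2.35 in AML and 42.2% ± 1.64 in healthy libraries. Slc2a1 held 43.8% ± 9.26 of the pair with Slc2a3 in AML and 50.9% ± 7.00 in healthy libraries. Of the EGLN hydroxylases, Egln1 held 52.9% ± 4.19 in AML and 55.1% ± 2.85 in healthy libraries, and Egln3 held 0% to 0.449% over the 6 libraries. Bnip3 held 23.3% ± 2.47 of the pair with Bnip3l in AML and 24.0% ± 1.23 in healthy libraries. Only 24.3% of the coding windows of Bnip3 and 29.9% of those of Bnip3l were unique, so the Bnip3 share is uncertain. With 3 against 3 libraries the exact two-sided permutation test cannot go below p = 0.1; the smallest p over the 10 shares compared was 0.2, with an adjusted p of 0.667, so this test could not call a difference in any share, and no other test of the shares was made.

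**Figure D5:**
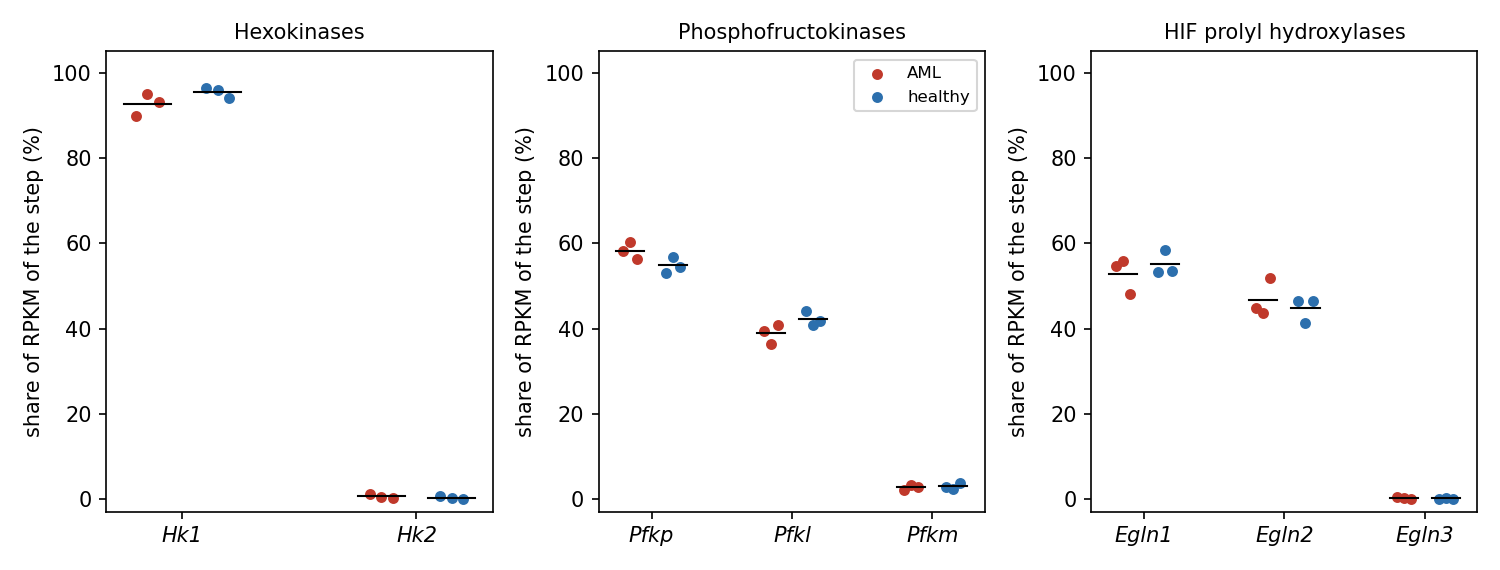
Share of a step's RPKM held by an isoform in each library (percent), for the hexokinases Hk1 and Hk2, the phosphofructokinases and the EGLN hydroxylases. AML points lie left of healthy points, with black lines for means. Hk1 held 89.9% to 96.5% of the hexokinase RPKM over the 6 libraries.

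Other genes of the same pathways, from lists of 109 symbols in all, gave a similar picture: 107 were in the table, 83 were tested, and 0 passed an adjusted p of 0.05 by edgeR. At an unadjusted p below 0.05, 2 of 83 were higher in AML, against 5.08% of all genes, and 5 of 83 were lower, against 3.75%; the median log2 fold change over the 83 was -0.01. The 2 with higher values were Slc2a6, a transporter of the SLC2A family linked to inflammatory macrophages, and Insig2, a sterol sensor. Slc2a6 measured 25.1, 21.0 and 21.1 CPM in AML libraries, against 16.5, 14.8 and 16.0 CPM in healthy libraries, a log2 fold change of 0.51 ± 0.12 without overlap between groups (edgeR, unadjusted p = 0.00375, adjusted p = 0.399). The summed macrophage markers, given above, were also higher in every AML library than in any healthy one, and their part in the Slc2a6 values was not tested. Insig2 measured 28.0, 32.8 and 32.5 CPM in AML libraries, against 22.2, 22.7 and 22.2 CPM in healthy libraries, also without overlap, at 0.47 ± 0.10 (edgeR, unadjusted p = 0.00175, adjusted p = 0.399).

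The 5 with lower values were Cited2, Siah2, Jmjd6, Bhlhe40 and Pdp1. Cited2, which competes with HIF for its coactivator and is itself induced by HIF, measured 229, 159.97 and 172 CPM in AML libraries, against 262, 304 and 259 CPM in healthy libraries. The groups did not overlap, and the log2 fold change was -0.56 ± 0.14 (edgeR, unadjusted p = 0.00470, adjusted p = 0.404). Bhlhe40, a transcriptional repressor and HIF target, measured 2143, 906 and 772 CPM in AML libraries, against 2018, 2724 and 2197 CPM in healthy libraries. AML 1 stood within the healthy range while AML 2 and AML 3 lay below it, as for Slc2a1, and the log2 fold change was -0.86 ± 0.36 (edgeR, unadjusted p = 0.0453, adjusted p = 0.564). Siah2, a ubiquitin ligase that targets prolyl hydroxylases, Jmjd6, an oxygen-dependent hydroxylase, and Pdp1, the phosphatase that reactivates pyruvate dehydrogenase, had log2 fold changes of -0.67 ± 0.27, -0.34 ± 0.12 and -0.26 ± 0.11.

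Cited2 and Siah2 belong to the list of HIF machinery, of which 13 genes were tested. At an unadjusted p below 0.05 by edgeR, 2 of 13 were lower in AML, against 3.75% of all genes tested. In the other direction 0 were higher, against 5.08%, and 0 of the 13 passed an adjusted p of 0.05. Of the other genes of this list, Arnt, the partner subunit, had a log2 fold change of -0.07 ± 0.09. Vhl, which carries hydroxylated HIF to destruction, had 0.01 ± 0.19, and Egln2 had -0.01 ± 0.12. Epas1, the HIF-2 alpha subunit, was low at 0.278 RPKM against 21.5 RPKM for Hif1a over the 6 libraries. Of the lists' 107 genes in the table, 10 had no counts in any library, among them the transporters Slc2a2 and Slc2a4 and the hepatic gluconeogenic enzyme G6pc.

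In the authors' deposited table, which lists 29 of the 33 members among 9769 genes, 2 members had p below 0.05, against 8.12% of its genes, and 0 passed after adjustment, against 0.757%. For Slc2a1 the authors' deposited table gives a log2 fold change of -0.55 (p-value 0.0145, adjusted 0.386), and for P4ha1 the authors' deposited table gives 0.45 (p-value 0.0349, adjusted 0.548), both by a likelihood ratio test per its column names.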

How the data were processed

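The authors deposited raw read counts per gene, whole numbers for 24091 symbols, with positions and a gene length in kilobases. The authors' comparison, deposited as a further table, gives for each gene its log2 fold change and mean log2 CPM, the score of a likelihood ratio test (LR) and its p-value, raw and adjusted, per the file headers. 6 columns of that table, with values per library, were not used. Tools named by the submitters' processing notes, without their roles, are STAR 2.6.0, HTSeq 0.6.0, bcl2fastq 2.18.0.12 and edgeR 3.28.1, with the builds mm10 and hg19. Counting options were not given in the sources used here. Per the labels' protocols, 2 ng of total RNA was amplified by a SMART-Seq kit and read in single reads of 51 cycles without strand information, so overlapping genes cannot be told apart. All 33 members lie on the RefSeq GRCm38.p6 chromosome, 20 with an identical start, so positions are given as mm10 counted from 1.

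All genes were fitted with edgeR 4.0.16 (limma 3.58.1, R 4.3.3): TMM scaling, filterByExpr at a minimum count of 10, the quasi-likelihood F test with group as the only term, two-sided, and Benjamini-Hochberg adjustment over 12469 genes. The script was tested on simulated counts. CPM and RPKM were computed from the counts on TMM-scaled library sizes, RPKM with the deposited length. Alternatives were DESeq2 1.42.0, the likelihood ratio test, limma-voom, other size factors and filters, a replicate block and leaving libraries out. Uniqueness is the share of 51-base windows of a gene's transcript found in no other GENCODE vM21 gene. The text names members past p of 0.05, members without overlap between groups and, for each role, the most abundant and the most changed member, and from the pathway lists genes at an unadjusted p of 0.05 or partner isoforms; Gapdh, Vegfa and P4ha1, and Arnt, Vhl, Epas1, G6pc, Slc2a2 and Slc2a4 of the lists, were added after their values were seen. The members and all lists were chosen with earlier results of these data known.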

Additional observations from a re-analysis of the deposited data

How the results depend on the processing

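Over 15 alternatives, the count of members called stayed at 0 except without AML 1, at 1, and without the libraries numbered 1 of both groups, at 2; leaving out libraries thus gave 0 to 2. The count of all genes called, 0 by the quasi-likelihood test, was 1 with upper quartile scaling, 2 without a filter on low counts, 143 by DESeq2, 100 by the likelihood ratio test and 0 to 444 with libraries left out, of which 147 came without AML 1, 89 without healthy 1 and 444 without both; what makes the tools differ was not tested. Of 344 values of single members under alternatives, 321 kept their direction and side of the threshold and 20 changed sign, 4 of them with all libraries kept. These 4 were Pkm at 0.017 with upper quartile scaling and 0.0029 with a filter at a CPM of 1, and Ldha at -0.0014 by limma-voom and -0.00098 with the replicate block. With libraries left out, the log2 fold changes that crossed 0 ran from -0.032 to 1.75 for Hk2, -0.13 to 0.11 for Ldha, -0.11 to 0.049 for Kdm3a, -0.090 to 0.23 for Gapdh, -0.062 to 0.061 for Pkm, -0.10 to 0.034 for Fam162a and -2.74 to 0.073 for Vegfa. Isoform shares that crossed 0, in percentage points, AML minus healthy, ran from -0.53 to 0.21 for Pfkm, -3.68 to 0.23 for Egln1, -0.45 to 3.57 for Egln2 and -2.08 to 0.22 for Bnip3. Deviations from the group means correlated at 0.13, -0.05 and 0.16 for same-numbered libraries. AML 1 correlated best with healthy 1 and AML 3 with healthy 3, but AML 2 also correlated best with healthy 3. The libraries were therefore not treated as pairs, though with so few libraries this check cannot decide whether they were paired. With the replicate block 0 members and 0 genes were called, with 2 members (Pfkfb4 and Slc2a1) and 1462 genes at an unadjusted p below 0.05. The count of members at an unadjusted p below 0.05 ran from 0 to 8 with libraries left out.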

Other observations

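The branch that leaves glycolysis at its first intermediate, the pentose phosphate pathway that makes NADPH and ribose, gave no called gene. All 7 of its listed genes were tested, 0 had an unadjusted p below 0.05 and 0 an adjusted one by edgeR, where 8.84% and 0% of all genes did, and the median log2 fold change, AML minus healthy, was -0.08. Taldo1, the transaldolase, was the most abundant per unit length at 172 RPKM over the 6 libraries. It measured 242, 221 and 200.5 CPM in AML libraries, against 229.8, 214 and 197 CPM in healthy libraries, with overlapping groups and a log2 fold change of 0.05 ± 0.10 (SE; 95% interval -0.17 to 0.27). G6pdx, the dehydrogenase that opens the pathway, had a log2 fold change of -0.08 ± 0.12 and Tkt, the transketolase, -0.08 ± 0.12.

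Of 7 genes of gluconeogenesis, 4 were tested and 0 passed by edgeR. Pck2, the mitochondrial phosphoenolpyruvate carboxykinase, measured 20.1, 21.2 and 24.6 CPM in AML libraries, against 17.6, 19.5 and 17.2 CPM in healthy libraries, without overlap between the groups, as in 15.5% of all genes tested, and with a log2 fold change of 0.28 ± 0.12 (edgeR, unadjusted p = 0.0553, adjusted p = 0.568). The genes named here were picked after their values were seen.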
